A study of Mus musculus with 2 samples.

Results

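The genes described here are *Bcl6*, 3 of the genes that lie beside it on mouse chromosome 16 (*Lpp*, *Trp63* and *P3h2*) and 4 genes whose proteins form its corepressor complexes (*Bcor*, *Bcorl1*, *Ncor1* and *Hdac3*). They are 8 of the 32285 genes in the count tables, taken by symbol, and all 8 were found. They were chosen with values of these libraries known. *Bcl6* was selected on its counts, which were higher in the KO-labelled library, although a count per gene does not check the deletion. Its neighbours and partners were then added by position and by role. The 3 neighbours all lie at higher coordinates than *Bcl6* and are not the nearest genes. Several genes are nearer than *Lpp*, among them *Rtp2* (32.7 kb away, no UMI in myonuclei), *Gm31814* (197 kb) and *Rtp4* (351 kb). The differences of the 8 genes between the libraries are therefore given as a description, with no test.

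The libraries come from single-nucleus RNA sequencing of tibialis anterior (TA), a fast muscle of the lower leg of the mouse. M-*Bcl6* KO mice were Myf6-Cre+ Bcl6 fl/fl and their controls, M-*Bcl6* WT, were Myf6-Cre+ Bcl6 wt/wt littermates, so that all animals carried the Cre recombinase driven by the *Myf6* promoter, which is active in skeletal muscle cells. All were C57BL/6 males aged 6 weeks, and the right and left TA of 2 mice went into 1 library per genotype. Nuclei were sorted on the DNA dye 7-AAD. At which step the muscles were pooled is not stated in the sources used here. The WT-labelled library held 3798 barcodes and 11974138 unique molecular identifiers (UMIs, which count each captured RNA molecule once), and the KO-labelled library held 4096 barcodes and 12026013 UMIs. Of these, 3674 and 3944 nuclei were kept, with a median of 2555 and 2478.5 UMIs, and the libraries shared 6 barcode sequences. Each genotype had 1 library and hence no replicate error, and no p-value is given between libraries. The 95% intervals printed after values cover counting error only.

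BCL6 is a repressor of transcription with a BTB domain at one end and zinc fingers that bind DNA at the other. It is best known from germinal centre B cells, where it holds back genes of differentiation and of the response to DNA damage. Its BTB domain binds corepressors: NCOR1, a scaffold that carries the histone deacetylase HDAC3, and BCOR, which with its relative BCORL1 belongs to a variant Polycomb complex, PRC1.1. In liver and muscle, genes induced by growth hormone through STAT5, *Socs2* and *Cish* among them, are known targets of repression by BCL6.

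The floxed allele removes exons 7 to 9, and 3 sequences show what is lost. In transcript Bcl6-201 of GENCODE M21 (GRCm38), which has 10 exons and 3525 bases, exons 7, 8 and 9 have 168, 131 and 138 bases, all coding, and lie on the reverse strand at chr16:23969906-23970073, chr16:23968307-23968437 and chr16:23968060-23968197. They are printed 5′ to 3′ as transcribed, with the sites of the RT-qPCR primers of the study in capitals, forward in exon 7 and reverse (as its complement) in exon 9.
exon 7: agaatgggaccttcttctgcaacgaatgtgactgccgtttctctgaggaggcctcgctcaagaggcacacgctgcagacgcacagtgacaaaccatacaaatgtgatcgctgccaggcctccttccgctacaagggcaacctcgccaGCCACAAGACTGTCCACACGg
exon 8: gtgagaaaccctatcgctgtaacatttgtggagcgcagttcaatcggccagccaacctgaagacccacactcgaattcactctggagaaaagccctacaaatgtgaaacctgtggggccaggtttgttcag
exon 9: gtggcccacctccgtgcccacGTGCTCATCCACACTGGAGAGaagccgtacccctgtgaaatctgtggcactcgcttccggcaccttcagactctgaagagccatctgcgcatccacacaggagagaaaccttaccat
Together these exons make up 437 bases, or 12.4% of the transcript, and 437 leaves a remainder of 2 on division by 3. Exon 10, at chr16:23965052-23966268, follows with 1217 bases, 34.5% of the transcript, and is not flanked. Both primers lie inside the floxed part, whereas the deposited counts are per gene and do not show from which exon a UMI came. A count of *Bcl6* UMIs therefore does not check the deletion. Whether the study numbers exons as this transcript does is not stated in the sources used here.

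*Bcl6* (ENSMUSG00000022508, chr16:23965052-23988852, reverse strand) was the gene of the group with the highest level per kb of gene body in myonuclei of both libraries. Myonuclei, the nuclei inside muscle fibres, numbered 2414 of 3674 nuclei in the WT-labelled library (65.7%) and 3087 of 3944 in the KO-labelled library (78.3%). As a share of the UMIs of the class (CPM, UMIs in every 1000000), *Bcl6* stood at 168 (159 to 176) on 1485 UMIs in the WT-labelled library and at 502 (488 to 516) on 4843 UMIs in the KO-labelled library. The log2 ratio of KO over WT was 1.58 (1.498 to 1.67). It ranked 89 from the top of the 6988 genes with at least 200 UMIs in the myonuclei of the libraries together, and the median of these genes was −0.15. Of the same 6988 genes, 214 were at least 2-fold higher in the KO-labelled library (3.06%) and 190 at least 2-fold lower (2.72%), and of the 8 genes described here 2 were at least 2-fold higher (*Bcl6* and *P3h2*) and none was 2-fold lower. Since the contrast between libraries served to choose *Bcl6*, nothing is read from that count.

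The size of the difference varied with fibre type. Fibre types were read from the myosin heavy chain gene with most UMIs in a nucleus: *Myh4* marks the fast glycolytic IIB fibres, *Myh1* IIX, *Myh2* the fast oxidative IIA and *Myh7* the slow fibres. In *Myh4* nuclei (704 and 611 in the WT- and KO-labelled libraries), *Bcl6* went from 169 CPM (153 to 186) to 841 CPM (799 to 886), a log2 ratio of 2.31 (2.16 to 2.47). In *Myh1* nuclei (1161 and 1176) it went from 159 CPM (147 to 171) to 430.4 CPM (410.4 to 451), a log2 ratio of 1.44 (1.31 to 1.57). *Myh2* nuclei (234 and 482) had 239.5 CPM (208 to 274) and 354 CPM (326 to 383), a log2 ratio of 0.56 (0.33 to 0.80). The order of the 3 fibre types differed between the libraries: the WT-labelled library had its highest level in *Myh2* nuclei, beyond the counting intervals of the other types, and the KO-labelled library had it in *Myh4* nuclei. Nuclei with no *Myh* UMI or a tie (313 and 799) had 141 CPM (118 to 166) and 483 CPM (454 to 513). *Myh7* was the main gene in 2 and 19 nuclei, which held 1 and 21 *Bcl6* UMIs. With the same weight for each *Myh* group in both libraries, the log2 ratio over myonuclei was 1.57.

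**Figure D1:**
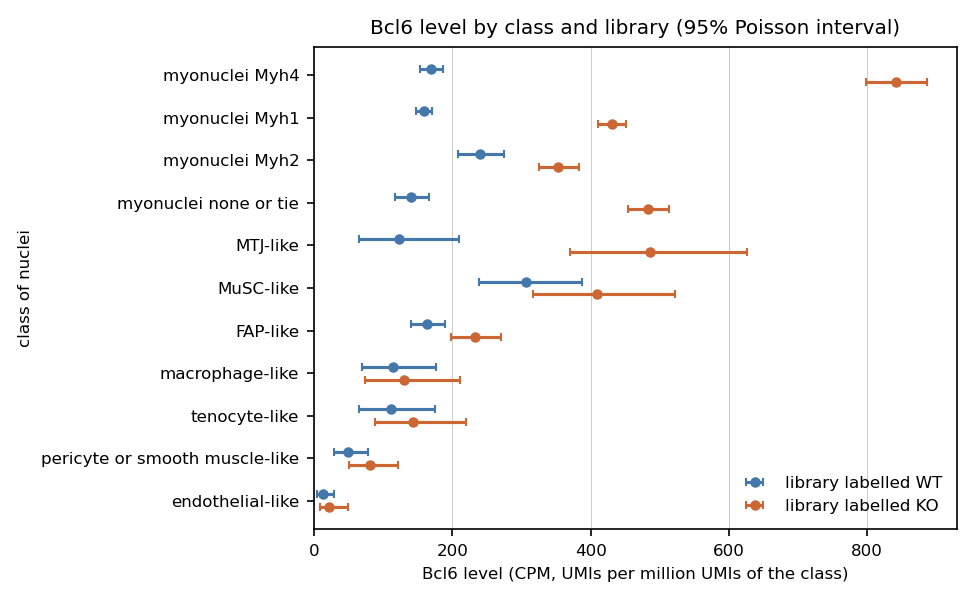
Level of *Bcl6* (x axis, CPM) in 11 classes of nuclei (y axis) of the WT-labelled library (blue) and the KO-labelled library (orange), with exact Poisson 95% intervals. The point of *Myh4* myonuclei in the KO-labelled library lies at 841 CPM, above every other class, and the endothelial-like points, at 12.7 and 22.3 CPM, are the lowest. MTJ-like nuclei are myonuclei of the myotendinous junction and are also counted in the *Myh* groups.

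Among specialised myonuclei, the nuclei of the myotendinous junction (MTJ-like, 24 and 34), where fibres join the tendon, had 123 CPM (65.5 to 210.4) and 486 CPM (369.7 to 626), a log2 ratio of 1.98 (1.098 to 2.97). Those of the neuromuscular junction (NMJ-like, 15 and 7) held 14 and 11 *Bcl6* UMIs, and their log2 ratio of 0.94 had an interval from −0.34 to 2.18. In the 5 large myonuclear clusters, which were made without the 8 genes, the log2 ratio ran from 0.82 to 2.13 and was above 0 in all 5.

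Outside the fibres, *Bcl6* was highest in nuclei like muscle stem cells (MuSC-like) and lowest in endothelial-like nuclei. MuSC-like nuclei (164 and 111) had 307 CPM (239 to 388) in the WT-labelled library, the highest level of the 10 classes with at least 30 nuclei in both libraries, and 409.7 CPM (316 to 522) in the KO-labelled library. The log2 ratio of 0.42 had an interval from −0.09 to 0.92. Nuclei like fibro-adipogenic progenitors (FAP-like, 481 and 329), the connective tissue cells of muscle, had 163 CPM (140.2 to 189) and 232 CPM (198 to 271), a log2 ratio of 0.51 (0.19 to 0.82). Over all non-muscle nuclei the ratio was 0.42 (0.19 to 0.64). The 10 myonuclear marker genes summed to 1651 CPM in FAP-like nuclei of the WT-labelled library and to 4005 CPM in those of the KO-labelled library, led by *Ttn* with 611 and 1910 CPM, with all 10 detected in each. The part of this myonuclear RNA in the FAP-like ratio was not tested. In MuSC-like nuclei the same markers summed to 10624 and 10192 CPM, led by *Dmd*.

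Endothelial-like nuclei (223 and 130) held 5 and 6 *Bcl6* UMIs, or 12.7 CPM (4.14 to 29.7) and 22.3 CPM (8.20 to 48.6), while the myonuclear markers in them summed to 2916 and 2911 CPM. Without removal of doublets the level was 36.3 and 37.1 CPM. Pericyte or smooth muscle-like nuclei had 49.2 and 81.0 CPM, tenocyte-like nuclei 111 and 144 CPM, and macrophage-like nuclei 114 and 130.2 CPM. All these intervals of the log2 ratio included 0. Macrophage-like nuclei also carried B-cell markers, summing to 862 and 732 CPM and led by *Bank1*, and T or NK cell markers at 485 and 244 CPM, led by *Skap1*.

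Taken in order of level, neighbouring classes of the WT-labelled library overlapped in their intervals from MuSC-like to *Myh2* nuclei and again from *Myh4* nuclei through FAP-like, *Myh1*, untyped, macrophage-like, tenocyte-like and pericyte or smooth muscle-like down to endothelial-like nuclei, with a gap only between *Myh2* and *Myh4* nuclei. In the KO-labelled library, *Myh4* nuclei stood apart from untyped nuclei, the next in order, untyped from *Myh1* nuclei, *Myh2* nuclei from FAP-like nuclei, and endothelial-like nuclei from the pericyte or smooth muscle-like class above them. *Bcl6* was higher in the KO-labelled library in 10 of 10 classes, and the interval of the ratio lay above 0 in 5, the 4 *Myh* groups and FAP-like nuclei. With nuclei assigned by their own marker UMIs, the direction in MuSC-like nuclei turned, to 357 CPM in the WT-labelled and 279.5 CPM in the KO-labelled library.

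To see how many nuclei carried *Bcl6* RNA, each nucleus was thinned to 1000 UMIs. A *Bcl6* UMI was found in 15.0% (13.6 to 16.5) of 2387 myonuclei in the WT-labelled library and in 37.5% (35.8 to 39.3) of 3014 in the KO-labelled library, against 0.654% (0.0165 to 3.59) of 153 and 2.65% (0.551 to 7.56) of 113 endothelial-like nuclei, where 27 and 73 myonuclei and 70 and 17 endothelial-like nuclei had fewer than 1000 UMIs and were left out. Without thinning, at median depths of 3127.5 and 2714 UMIs for myonuclei and 1400 and 1747.5 for endothelial-like nuclei, a *Bcl6* UMI was in 36.7% and 65.6% of myonuclei and in 2.24% and 3.85% of the endothelial-like class. Nuclei with several *Bcl6* UMIs were also more frequent in the KO-labelled library. In the WT-labelled library, 304 thinned myonuclei held 1 *Bcl6* UMI, 44 held 2 and 11 held 3 or more, the most being 5. Of those in the KO-labelled library, 787 held 1, 234 held 2 and 110 held 3 or more, the most being 7. The mean was 0.179 and 0.539 UMIs per nucleus, and the variance over the mean was 1.22 and 1.32. *Myh4* nuclei of the KO-labelled library had the highest mean, 0.897, and 8.26% of them held 3 or more UMIs, against 1.47% of *Myh2* nuclei in the same library and 0.287% of *Myh4* nuclei in the WT-labelled library.

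**Figure D2:**
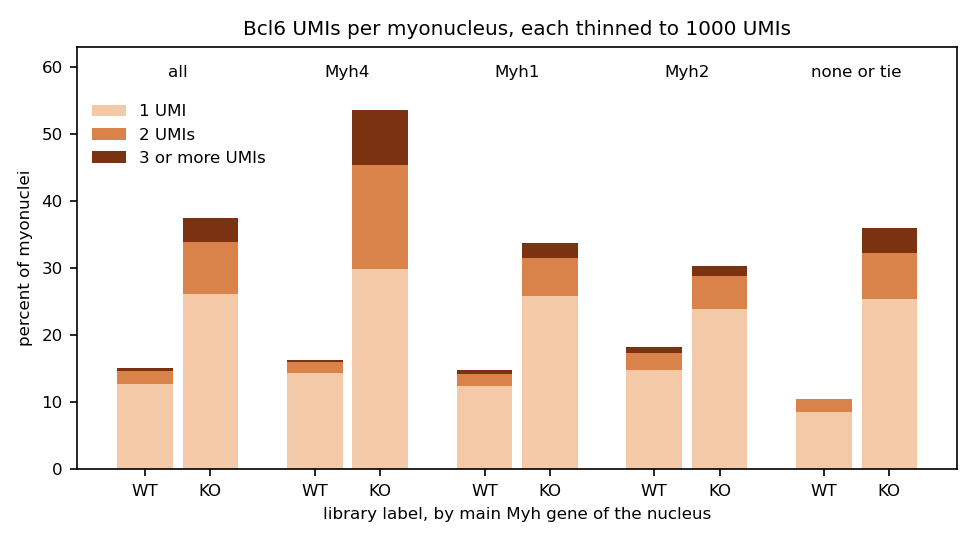
Percent of myonuclei (y axis) with 1, 2 or 3 and more *Bcl6* UMIs after thinning each nucleus to 1000 UMIs, for all myonuclei and by main *Myh* gene (x axis, WT-labelled library and KO-labelled library side by side). The tallest bar is that of *Myh4* nuclei in the KO-labelled library, at 53.6% of nuclei with a UMI, against 16.3% in the WT-labelled library.

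Nuclei with the imprinted noncoding RNA *Meg3* give another cut through the same library. Of the KO-labelled library, 2057 thinned myonuclei held a *Meg3* UMI and 957 did not, and *Bcl6* was found in 39.3% (37.2 to 41.4) of the former and 33.8% (30.8 to 36.8) of the latter, at 569.8 CPM (538 to 603) and 472 CPM (429.8 to 518). In the WT-labelled library, 104 nuclei with *Meg3* and 2283 without it showed *Bcl6* in 17.3% (10.6 to 26.0) and 14.9% (13.5 to 16.5). Read the other way, *Meg3* was found in 71.4% of *Bcl6*-positive and 66.3% of *Bcl6*-negative myonuclei of the KO-labelled library, a difference of 5.11 percentage points, which was 2.15 points with nuclei weighted to the same *Myh* make-up.

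Promoter sequence is shown for *Bcl6* because BCL6 and STAT factors are known to bind related sites. In the promoter tables of RefSeq (GRCm38.p6, 250 bases before to 50 after a transcript start), 9 windows of 5 of the 8 genes were searched. Among them, the second window of *Bcl6*, at chr16:23981234-23981533 on the reverse strand, inside the gene body, holds 2 matches to TTCCNNGAA, searched on both strands, in capitals here.
Bcl6 promoter 2: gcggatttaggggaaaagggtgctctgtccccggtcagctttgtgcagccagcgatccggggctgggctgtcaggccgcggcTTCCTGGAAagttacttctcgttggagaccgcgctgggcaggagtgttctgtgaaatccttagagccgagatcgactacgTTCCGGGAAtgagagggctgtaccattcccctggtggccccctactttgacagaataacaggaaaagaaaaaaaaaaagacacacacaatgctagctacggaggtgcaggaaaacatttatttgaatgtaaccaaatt
The first window of *Bcl6*, at chr16:23988803-23989102, holds none. A match was found in 1581 of 32851 windows (4.81%), in 1 of 2 windows of *Lpp* (TTCTGGGAA, the motif on the other strand) and in 1 of 2 of *Ncor1*, where it is TTCCTAGAA, the sequence known as the BCL6 consensus, held by 135 windows (0.411%). The windows of *Bcor* and *Bcorl1* hold none. No measurement of binding was used here, and a match of letters is not a site.

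On chromosome 16, the 3 neighbours chosen were higher in the myonuclei of the KO-labelled library. *Lpp* (ENSMUSG00000033306, chr16:24393507-24992578), 405 kb away on the forward strand, encodes a LIM-domain protein of cell adhesions. It had 481 CPM (467 to 496) in the WT-labelled library and 786 CPM (768 to 804) in the KO-labelled library, a log2 ratio of 0.71 (0.65 to 0.76). Its ratio followed the fibre-type order of *Bcl6*, with 0.89 (0.78 to 1.00) in *Myh4*, 0.69 (0.61 to 0.78) in *Myh1* and 0.43 (0.27 to 0.58) in *Myh2* nuclei. In contrast to *Bcl6*, *Lpp* had its highest level in pericyte or smooth muscle-like nuclei, at 1346 and 1475 CPM with a ratio of 0.13 (−0.06 to 0.32), and ratios in FAP-like (0.13), endothelial-like (0.23), macrophage-like (−0.05) and tenocyte-like nuclei (−0.31) all had intervals that included 0. The interval lay above 0 in MuSC-like nuclei (0.36, 0.06 to 0.65), in Schwann-like nuclei on 19 and 42 UMIs (1.43, 0.62 to 2.30) and over all non-muscle nuclei (0.15, 0.06 to 0.24). Fibres held 66.1% of its UMIs in the WT-labelled library and 81.6% in the KO-labelled library, beside 77.5% and 84.2% of all UMIs.

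*Trp63* (ENSMUSG00000022510, chr16:25683763-25892102, forward strand, 1695 kb away) encodes p63, a member of the p53 family known from basal layers of epithelium. Fibres held 92.6% and 97.9% of its UMIs, beside 77.5% and 84.2% of all UMIs, and the small unnamed clusters, with 34 and 29 nuclei, had 423 and 96.0 CPM. The epithelial keratins *Krt5*, *Krt14* and *Krt15* were at 0 in myonuclei of both libraries, and *Dsp*, the last of the 4 basal epithelial markers, was at 0.113 and 0 CPM. *Trp63* stood at 174 CPM (165 to 183) and 286 CPM (275 to 296), a log2 ratio of 0.72 (0.63 to 0.81). Among *Myh4*, *Myh1* and *Myh2* nuclei its level was highest in *Myh4* nuclei of both libraries (311 and 404 CPM) and lowest in *Myh2* nuclei (44.0 and 143 CPM). The ratio ran the other way from that of *Bcl6*: 0.38 (0.23 to 0.53) in *Myh4*, 0.97 (0.83 to 1.12) in *Myh1* and 1.70 (1.20 to 2.24) in *Myh2* nuclei. MTJ-like nuclei had 558 and 576 CPM and NMJ-like nuclei 674 and 726 CPM, with intervals of the ratio on both sides of 0. In MuSC-like nuclei *Trp63* was lower in the KO-labelled library, 132 CPM (81.9 to 202) on 21 UMIs against 263 CPM (201 to 339) on 60, a log2 ratio of −0.99 (−1.78 to −0.25). FAP-like and endothelial-like nuclei had at most 26.9 CPM.

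*P3h2* (ENSMUSG00000038168, chr16:25959288-26105784, reverse strand, 1970.4 kb away) encodes a prolyl 3-hydroxylase that modifies collagen. Among the 10 classes with at least 30 nuclei in both libraries, its level was highest in tenocyte-like nuclei, the nuclei of tendon cells, at 635 CPM (518 to 770.1) and 561 CPM (446 to 697). Macrophage-like (286 and 277 CPM) and pericyte or smooth muscle-like nuclei (186 and 176 CPM) followed. Schwann-like nuclei had 233 and 142 CPM on 12 and 6 UMIs. Over all non-muscle nuclei its log2 ratio was 0.04 (−0.22 to 0.30). In myonuclei it was scarce, with 34 UMIs (3.84 CPM, 2.66 to 5.36) in the WT-labelled library and 190 (19.7 CPM, 17.0 to 22.7) in the KO-labelled library, a log2 ratio of 2.36 (1.83 to 2.93). *Myh2* nuclei had 12.7 CPM (6.35 to 22.8) and 49.1 CPM (39.0 to 60.9), and *Myh1* nuclei 2.20 CPM (1.06 to 4.05) and 18.8 CPM (14.8 to 23.6). *Myh7* nuclei went the other way (−3.81, −5.46 to −2.04). They had 1872 CPM (687 to 4075) on 6 UMIs in 2 nuclei of the WT-labelled library. In the KO-labelled library they had 133 CPM (61.0 to 253) on 9 UMIs in 19 nuclei. The WT-labelled level exceeded that of tenocyte-like nuclei, with overlapping intervals, but rests on 2 nuclei. In thinned nuclei, *P3h2* was found in 0.503% and 1.53% of myonuclei against 1.31% and 2.65% of endothelial-like nuclei, the latter on 2 and 3 nuclei. Endothelial-like nuclei themselves had *P3h2* at 40.8 and 59.6 CPM, above myonuclei, so they are no blank for this gene. These shares therefore cannot decide whether fibres express *P3h2*, and nothing is read from them. In *Myh2* nuclei the share was 1.73% (0.474 to 4.37) and 4.62% (2.92 to 6.91), with intervals that overlapped those of endothelial-like nuclei (0.159 to 4.64 and 0.551 to 7.56). The 6 tenocyte markers summed to 5.42 and 8.49 CPM in myonuclei, led by *Thbs4* and *Mkx*, with *Tnmd* at 0 in both libraries and *Scx* at 0 in the WT-labelled library. When nuclei were assigned by their own marker UMIs, the ratio was 1.34. After thinning to 1000 UMIs it was 1.72, and over all nuclei it was 0.28.

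Around these 3 genes, 42 genes of the tables lie within 2 Mb of *Bcl6*, and 10 of them had no UMI in myonuclei. Of the 9 with at least 200 UMIs, 1 was at least 2-fold higher (*P3h2*) and none lower, beside 3.06% and 2.72% of all genes, with a median log2 ratio of −0.18 beside −0.15 for all genes. Within 1 Mb, 3 genes had at least 200 UMIs, none was past 2-fold and the median was 0.07. With at least 20 UMIs there were 16, and 2 were at least 2-fold higher (*P3h2*, and the noncoding *Gm31814* at 1.56 on 9 and 29 UMIs) and 1 lower (*Etv5*, −1.24 on 76 and 35 UMIs). *Etv5* is an NMJ marker, and NMJ-like nuclei numbered 15 and 7. The 7 NMJ markers in myonuclei, all detected, summed to 73.9 and 97.6 CPM, led by *Musk* with 44.5 and 77.1 CPM. *Musk* rose by more than the sum did, so the other markers together were lower in the KO-labelled library. The part of NMJ-like nuclei in the value of *Etv5* was not tested. The values for the remaining genes in order of distance were −0.33 for *Rtp4*, −0.57 for *Gm45338*, −0.35 for *Masp1*, 0.38 for *St6gal1*, −0.61 for *Rfc4*, 0.07 for *Eif4a2*, −0.29 for *Dnajb11*, −0.18 for *Tbccd1*, −0.29 for *Tra2b*, 0.95 for *Igf2bp2* and −0.20 for *Senp2*. Of these, the interval was above 0 for *Igf2bp2* alone and below 0 for *Tra2b* and *Senp2*.

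Split by side, a split made after the values were seen, the 4 genes with at least 20 UMIs at higher coordinates than *Bcl6* (*Gm31814*, *Lpp*, *Trp63* and *P3h2*) all had intervals above 0, whereas of the 12 at lower coordinates 1 had an interval above 0 and 3 below. Among all 12438 genes with at least 20 UMIs, 14.8% had an interval above 0 and 30.6% below. Out to 5 Mb, a window also added after the values were seen, the next genes with at least 200 UMIs on the higher side were *Il1rap* (−0.96, −1.39 to −0.53), *Ccdc50* (−0.59, −0.69 to −0.49) and *Mb21d2* (0.03, −0.24 to 0.30), 2.59, 3.40 and 4.84 Mb away. With at least 20 UMIs, 8 genes lay on that side within 5 Mb, 4 with intervals above 0 and 2 below. On the lower side 35 genes were counted, 5 with intervals above 0 and 13 below. Of those with at least 200 UMIs there, *Vps8* (0.79, 0.52 to 1.07), 2.32 Mb away, had a higher ratio than *Lpp* and *Trp63*, and *2510009E07Rik* (0.19), *Eif4g1* (0.14) and *Klhl24* (0.16) also had intervals above 0.

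**Figure D3:**
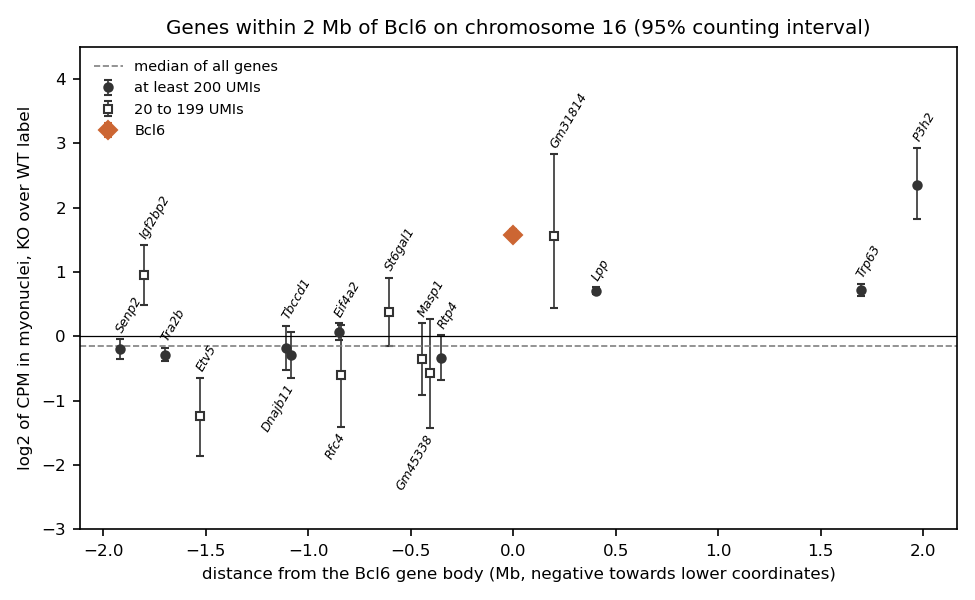
Log2 ratio of CPM in myonuclei, KO-labelled library over WT-labelled library (y axis), of genes with at least 20 UMIs within 2 Mb of *Bcl6*, by distance from its gene body (x axis, Mb). Bars are 95% counting intervals, filled circles have at least 200 UMIs and open squares fewer, the diamond is *Bcl6* and the dashed line is the median of all genes, −0.15. *Lpp*, *Trp63* and *P3h2* lie above 0 on the right, and most genes on the left lie near the dashed line.

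The corepressors differed less between the libraries. *Ncor1* (ENSMUSG00000018501, chr11:62316426-62458541, reverse strand), the scaffold, had 559.9 CPM in the WT-labelled library and 552 CPM in the KO-labelled library on 4963 and 5326 UMIs, a log2 ratio of −0.02 (−0.08 to 0.03). It was also even across classes, from 461 to 654 CPM in the WT-labelled library. Within fibre types its ratio was 0.03 in *Myh4*, −0.15 (−0.23 to −0.07) in *Myh1*, where the median of all genes was also −0.15, −0.04 in *Myh2* and 0.21 (0.05 to 0.37) in untyped nuclei. *Hdac3* (ENSMUSG00000024454, chr18:37935844-37955016, reverse strand), the deacetylase, had 34.3 and 30.6 CPM on 304 and 295 UMIs, with a log2 ratio of −0.17 (−0.40 to 0.07), and none of the 10 classes had an interval apart from 0, although 1 myonuclear cluster did (−0.60, −1.12 to −0.08). Because scaling by TMM or by the median of ratios moves all log2 ratios up, by 0.12 and 0.15, the ratio of *Ncor1* is above 0 under both.

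*Bcor* (ENSMUSG00000040363, chrX:12036740-12160355, reverse strand) was 1 of 8 genes with an interval in myonuclei below 0, beside 42.8% of the 6988 genes. It had 40.5 CPM on 359 UMIs in the WT-labelled library and 28.7 CPM on 277 UMIs in the KO-labelled library, a log2 ratio of −0.50 (−0.73 to −0.27), or rank 6007 of 6988. The interval lay below 0 in 5 of 10 classes: *Myh4* (−0.55), *Myh2* (−0.64), untyped (−0.98), FAP-like (−0.57) and MuSC-like nuclei, where 211 CPM on 48 UMIs stood against 88.2 CPM on 14 (−1.25, −2.23 to −0.37). In *Myh4* and *Myh2* nuclei the intervals reached up to −0.08 and −0.05 and so included the medians of all genes there (−0.13 and −0.12). Among these 10 classes the level of *Bcor* was highest outside the fibres in each library. The highest class was MuSC-like in the WT-labelled library and pericyte or smooth muscle-like in the KO-labelled library (169 CPM). The small unnamed clusters had 118 and 206 CPM on 10 and 15 UMIs. *Bcorl1* (ENSMUSG00000036959, chrX:48341358-48408049, forward strand) had 11.6 and 15.5 CPM on 103 and 150 UMIs and a log2 ratio of 0.42 (0.05 to 0.80). In FAP-like nuclei its ratio was −1.03 (−1.94 to −0.19), and over all nuclei −0.00508 (−0.28 to 0.27).

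**Figure D4:**
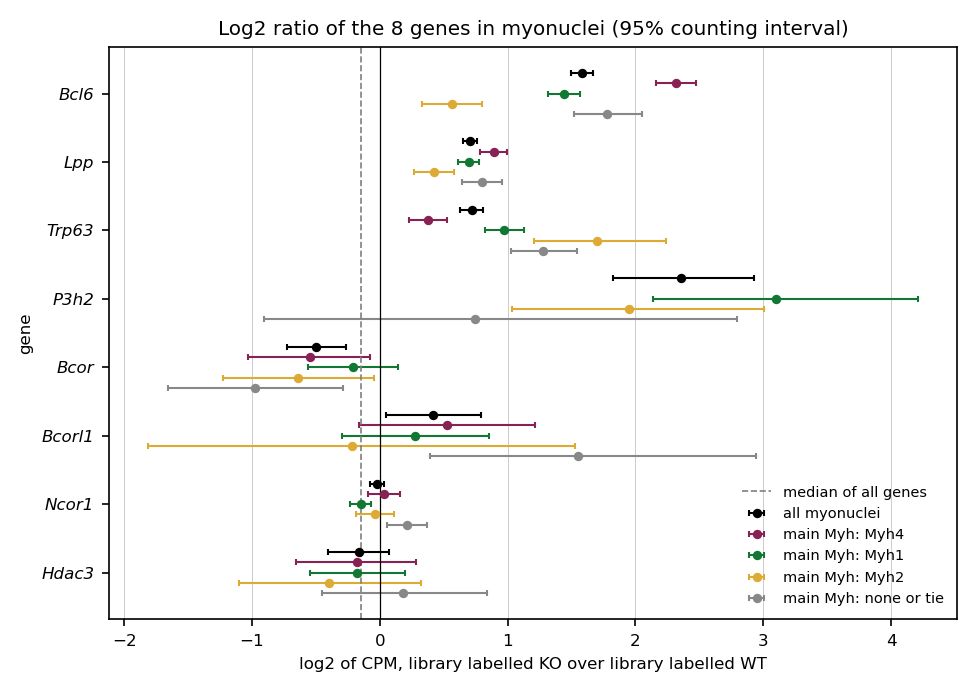
Log2 ratio of CPM, KO-labelled library over WT-labelled library (x axis), of each of the 8 genes (y axis) in all myonuclei and by main *Myh* gene, with 95% counting intervals. The dashed line is the median of all genes, −0.15, and the value of *P3h2* in *Myh4* nuclei is left out because the WT-labelled library held 3 UMIs. *Bcl6* and *Lpp* are highest in *Myh4* nuclei among the typed groups and *Trp63* in *Myh2* nuclei. *Ncor1* lies near 0, and the intervals of *Hdac3* include 0.

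Levels of different genes were set side by side per kb of gene body, the only length computed here. On that scale, myonuclei of the WT-labelled library had 7.04 CPM per kb of *Bcl6*, 3.94 of *Ncor1*, 1.79 of *Hdac3*, 0.833 of *Trp63*, 0.803 of *Lpp*, 0.328 of *Bcor*, 0.174 of *Bcorl1* and 0.0262 of *P3h2*. The KO-labelled library had 21.1 CPM per kb of *Bcl6* and 3.88 of *Ncor1*. In these units, *Bcl6* exceeded *Ncor1* in both libraries and *Bcor* was below *Hdac3* in both. The order rests on the length used, and whether intronic reads were counted is not given in the sources used here. Counts from a 3′ kit need not scale with length. Without division by length, *Ncor1* and *Lpp* had more CPM than *Bcl6* in both libraries, *Trp63* more in the WT-labelled library, and *Bcor* more than *Hdac3* in the WT-labelled library.

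A list of 21 further genes held corepressor genes and the BTB zinc-finger factors *Zbtb16*, *Zbtb17* and *Bcl6b*, which are not corepressors. Of the 21, 19 had at least 200 UMIs in myonuclei, *Zbtb16* (0.22) and *Zbtb17* (0.06) among them. Of the 19, 1 was at least 2-fold higher and none was 2-fold lower, beside 3.06% and 2.72% of all genes. Their median log2 ratio was −0.11. The highest were *Hdac7* (1.22, 1.02 to 1.41), *Hdac9* (0.66, 0.59 to 0.74), both class IIa deacetylases that bind MEF2 factors, and *Tbl1xr1* (0.60, 0.53 to 0.66), a subunit of the NCOR complex. Among the lowest were *Ctbp2* (−0.83, −1.17 to −0.50) and *Rcor1* (−0.43, −0.58 to −0.29). Of the partners of BCOR in PRC1.1, 7 of the 8 found in the tables had enough UMIs, with none past 2-fold and a median of −0.29. *Ring1* (0.06), *Usp7* (−0.20) and *Rnf2* (−0.22) were at the top and *Skp1a* (−0.56, −0.74 to −0.38), *Kdm2b* (−0.54, −0.70 to −0.38) and *Yaf2* (−0.38, −0.65 to −0.10) at the bottom, and 6 of the 7 were below the median of all genes.

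Genes that BCL6 is known to repress divided. Of 20 on the list, 9 had at least 200 UMIs, 3 of them were at least 2-fold higher and none 2-fold lower (3.06% and 2.72% of all genes), with a median log2 ratio of 0.13 beside −0.15 for all genes. With at least 100 UMIs, 11 were counted, the same number were past 2-fold and the median was 0.00348. *Bcl2*, an inhibitor of cell death, was below the limit at 99 and 56 UMIs (−0.95, −1.44 to −0.46). The 3 were *Cish* (2.99, 2.58 to 3.42), from 54 to 467 UMIs, *Socs2* (2.42, 2.30 to 2.55), from 633 to 3694 UMIs, both feedback inhibitors of cytokine signalling, and *Cdkn1a* (1.36, 0.99 to 1.75), the cell cycle inhibitor p21, from 80 to 224 UMIs. Among the lowest were *Ifngr1* (−0.36, −0.76 to 0.03) and *Nfkb1* (−0.32, −0.44 to −0.20). This list was written with the value of *Socs2* in these libraries known and is no independent evidence of a direction. Some genes of the list were hardly seen in myonuclei: *Prdm1* had 0 and 1 UMI, *Irf4* 1 and 0, and *Cd69* none. Others were well counted, such as *Atr* with 838 and 915 UMIs.

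Within a library, most differences between myonuclei with and without a *Bcl6* UMI lay within counting error once depth was made equal. With all UMIs, *Lpp* was found in 75.3% (72.3 to 78.1) of the 887 *Bcl6*-positive myonuclei of the WT-labelled library and in 64.9% (62.4 to 67.3) of the rest, and *Ncor1* in 81.5% (78.8 to 84.0) and 71.6% (69.2 to 73.8). After thinning to 1000 UMIs, *Lpp* was found in 40.1% (35.0 to 45.4) of 359 positive and 37.1% (35.0 to 39.2) of 2028 negative nuclei, and *Ncor1* in 43.2% (38.0 to 48.5) and 40.7% (38.6 to 42.9). The intervals, apart without thinning, then overlapped. In the KO-labelled library, thinned, *Lpp* was in 50.1% (47.2 to 53.1) of 1131 positive and 48.7% (46.4 to 51.0) of 1883 negative myonuclei, *Ncor1* in 39.7% (36.8 to 42.6) and 42.5% (40.3 to 44.8), *Trp63* in 18.6% and 18.4%, *Bcor* in 2.74% and 2.71%, *Hdac3* in 3.54% and 3.08%, *Bcorl1* in 1.41% and 1.91%, and *P3h2* in 1.24% and 1.70%. All 7 pairs of intervals overlapped. *Bcorl1* was the exception in the WT-labelled library, in 3.06% (1.54 to 5.42) of positive and 0.789% (0.452 to 1.28) of negative nuclei, on 11 nuclei with both genes.

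For the targets *Socs2* and *Cish*, too, the intervals overlapped at equal depth. In thinned myonuclei of the KO-labelled library, *Socs2* was found in 28.6% (26.0 to 31.4) of *Bcl6*-positive and 30.4% (28.3 to 32.5) of *Bcl6*-negative nuclei and *Cish* in 3.98% (2.92 to 5.29) and 5.10% (4.15 to 6.19). In the WT-labelled library, *Socs2* was found in 7.24% (4.79 to 10.4) and 6.71% (5.66 to 7.88). With nuclei weighted to the same *Myh* make-up, the differences of *Socs2*, positive minus negative, were −0.85 percentage points in the KO-labelled library and 0.51 in the WT-labelled library, and at 2000 UMIs per nucleus they were −4.12 and 3.27. At 1000 UMIs a nucleus without a *Bcl6* UMI may still hold *Bcl6* RNA, so these shares compare higher with lower content, not presence with absence.

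**Figure D5:**
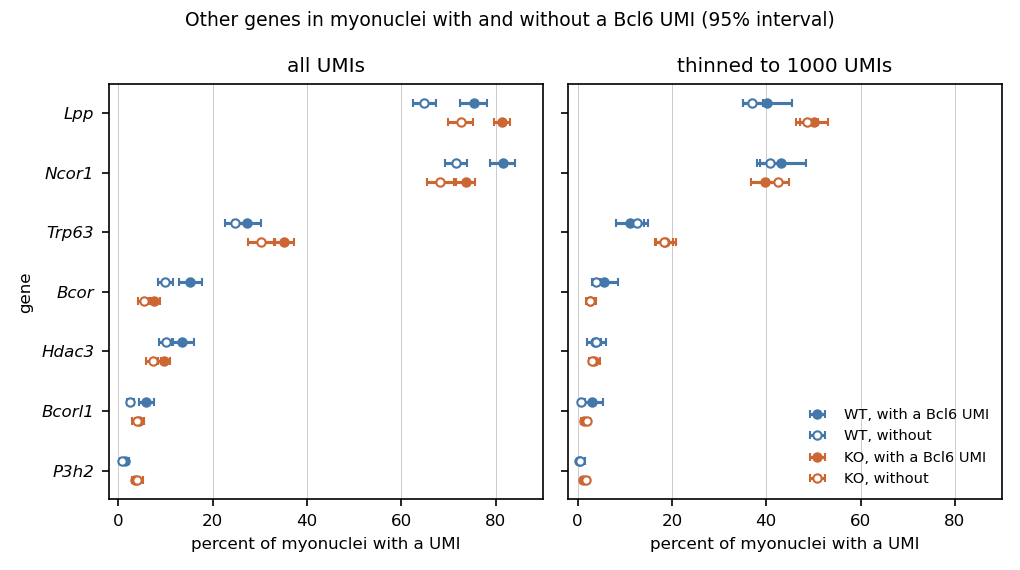
Percent of myonuclei with a UMI of each gene (x axis) among nuclei with (filled) and without (open) a *Bcl6* UMI, in the WT-labelled library (blue) and the KO-labelled library (orange), with all UMIs (left) and after thinning to 1000 UMIs (right). Bars are exact Clopper-Pearson 95% intervals. The gaps seen for *Lpp* and *Ncor1* on the left close on the right.

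Across the 10 classes with at least 30 nuclei in both libraries, the profile of *Bcl6* on a log2(CPM + 10) scale was most like that of *Mrps28*, a mitochondrial ribosomal protein, and *Srek1*, a splicing factor, with a Pearson correlation of at least 0.92 and 0.91 in each library among 6025 genes. *Focad* (0.87), *Iars* (0.86), *Pias2* (0.85), *Xrcc5* (0.84), *Jpx* (0.83), *Gemin5* (0.82), *Uri1* (0.82) and *Scfd2* (0.81) followed. These correlations rest on 10 classes that share a library and its depth and are given as a description. Their ratios between libraries in myonuclei were not those of *Bcl6*, running from −0.72 for *Uri1* to 0.32 for *Iars*. Of the other members, *Trp63* was the nearest in profile, at rank 146 with 0.68 in the WT-labelled library and 0.91 in the KO-labelled library, and *Bcor* the farthest, at rank 5441 with −0.08 and −0.70.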

How the data were processed

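The authors deposited filtered counts of UMIs per gene and barcode, 1 matrix per library. The submitters' processing notes name Cell Ranger 7.0.0, Seurat 5.0.3 and mm10; whether intronic reads were counted, and on which strand, is not given in the sources used here. The methods name a 3′ kit and the labels a multiome kit. The genes and gene lists were chosen with earlier results of these data known.

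Nuclei with 200 to 5000 genes and at most 5% mitochondrial UMIs were kept, and doublets were removed at 0.8% per 1000 barcodes. Clustering (Seurat 5.3.0, 2000 variable genes, 30 components, resolution 0.5) left out the 8 genes and genes that differed 2-fold between libraries (378 in all). Clusters were named from marker lists by a rule set after the clusters were seen, and 2 stayed unnamed (34 and 29 nuclei). Counts were summed per class and divided by the class total. Intervals are exact Poisson for CPM, exact conditional for ratios and Clopper-Pearson for shares, at 95%. Other scalings were TMM (edgeR 4.0.16) and the median of ratios. Thinning drew 1000 UMIs per nucleus with a fixed seed. Genes named are the 8 members, the top and bottom 3 of each list, neighbours within 2 Mb with at least 20 UMIs and the 10 most alike profiles; others were chosen after their values were seen. Values of 2 listed genes are not reported here. Gene positions are from GENCODE M21, where 32235 of 32285 identifiers matched. Adipocyte markers in myonuclei summed to 0.564 and 0.104 CPM. The scripts were tested on simulated data.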

Additional observations from a re-analysis of the deposited data

Results flagged for a closer look

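Among the 10 classes with at least 30 nuclei in both libraries, for 3 genes the ratio of the KO-labelled library over the WT-labelled library had intervals on opposite sides of 0 in different classes, and the difference between the classes was not tested in any of them. *Trp63* had a log2 ratio of 1.70 in *Myh2* myonuclei and −0.99 in MuSC-like nuclei. *Bcorl1* had 1.55 in myonuclei with no main *Myh* gene, on 7 and 46 UMIs, and −1.03 in FAP-like nuclei, on 50 and 16 UMIs. *Ncor1* had 0.21 in myonuclei with no main *Myh* gene and −0.15 in *Myh1* myonuclei, where the median of all genes was also −0.15.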

How the results depend on the processing

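Of 171 values recomputed under other settings, 139 stayed within counting error of the value reported (or, for a count of genes, near it), 31 moved further and 1, with an interval apart from 0, changed sign. The log2 ratio of *Bcl6* in myonuclei, 1.58, was 1.497 over all nuclei, 1.70 with TMM scaling and 1.73 with the median of ratios. That of *Lpp*, 0.71, was 0.52 over all nuclei, 0.83 with TMM, 0.85 with the median of ratios and 0.61 after thinning. The share of myonuclei with a *Bcl6* UMI was 27.3% and 54.2% at 2000 UMIs per nucleus. The ratio of *Bcorl1* changed sign over all nuclei, to −0.00508. The ratio of *Ncor1*, −0.02 with an interval that included 0, was above 0 in 4 settings: 0.10 with TMM, 0.13 with the median of ratios, 0.02 after thinning and 0.01 with equal *Myh* weights. The 5 Mb window and the split by side were added after the values were seen. No paired analysis was possible because each genotype had 1 library. Pooled animals within a library cannot be told apart, so the spread between mice is unknown, and depth limits statements on *P3h2* and *Bcorl1* in single classes.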
